A study of Homo sapiens with 12 samples.

Results

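The immediate early genes of the AP-1, EGR1 and MYC group were described in sorafenib-resistant and parental hepatocellular carcinoma (HCC) cells. The genes were taken by symbol from the deposited tables: FOS, FOSB, FOSL1 and FOSL2, JUN, JUNB and JUND, EGR1, IER3 and MYC. Of these 10 names, 9 had a row among the 27249 genes with an Ensembl identifier, and IER3 was not analysed here. RNA of Huh7 and HepG2, established human liver cancer lines, had been sequenced in 4 groups of 3 samples, all labelled WT in genotype. Resistant cells had received a first dose of 10 μmol sorafenib, a kinase inhibitor, and those that survived and grew went through further rounds at rising doses for 8 months. Parental cells, labelled sorafenib sensitive, had no treatment. Whether the resistant cells were a clone or a mixed population, and whether drug was in the medium at harvest, was not given in the sources used here. Nothing in the labels says that the 3 samples of a group were separate cultures, so p-values measure the spread between these samples, which may be technical.

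Immediate early genes are switched on by growth factor and stress signals without new protein synthesis, and many of their mRNAs are short-lived. ERK phosphorylates ELK proteins, which act with SRF on serum response elements of FOS and EGR1, and sorafenib inhibits RAF kinases upstream of ERK. FOS proteins pair with JUN proteins to form AP-1, while JUN proteins also pair among themselves. EGR1 is a zinc finger activator, and MYC pairs with MAX to drive ribosome production and growth.

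RefSeq promoter sequences (GRCh38.p14), from 250 bases before the transcription start to 50 after it, were matched for 7 of the 9 genes. All 7 held TGACG, the core of the cAMP response element, on either strand, compared with 24.6% of 27305 promoters of the same length. The match nearest to the start is printed below with 30 bases of context per gene, because all 7 share its letters. Capitals mark TGACG or its reverse complement CGTCA, and each sequence is written 5′ to 3′ on the strand of the gene.
FOS, chr14:75278751-75278780, plus strand: gtggttgagcccgTGACGtttacactcatt
FOSB, chr19:45467923-45467952, plus strand: agcaaggggcgggTGACGtaagcagggggg
FOSL2, chr2:28392779-28392808, plus strand: tggagtctggggtTGACGtgagtgaatcca
JUN, chr1:58784154-58784183, minus strand: ggagtctccatggTGACGggcgggcccgcc
JUNB, chr19:12791336-12791365, plus strand: cgcttcctgacagTGACGcgagccgcctcc
JUND, chr19:18281692-18281721, minus strand: tgcaaatgagcgaCGTCAcccgcacccaat
EGR1, chr5:138465400-138465429, plus strand: atatggccatgtaCGTCAcgacggaggcgg

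The first base of the match lay 60 to 66 bases before the start in FOS, FOSB, FOSL2 and EGR1, 86 before it in JUND, 123 in JUN and 137 in JUNB. These distances are from the RefSeq starts. By the gene spans of GENCODE 29, given with each gene below, the stretches of FOSL2 and JUN lie within the gene and that of FOS runs past its start. The CArG box is the motif of serum response elements. Sequence more than 250 bases before the start was not searched, so a box there, in FOS or another gene, would be missed. Within the stretches searched, the box was in 1.31% of all promoters and, among the 7 matched genes, in EGR1. That promoter held it at 2 places, in capitals in the next lines.
EGR1, chr5:138465364-138465393, plus strand: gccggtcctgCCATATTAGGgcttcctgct
EGR1, chr5:138465386-138465415, plus strand: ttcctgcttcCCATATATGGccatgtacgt
The full element TGACGTCA, which holds TGACG on both strands, was found in JUND and in 1.94% of all promoters. The AP-1 site TGANTCA was found in FOSL2 and in 7.9% of promoters, and the EGR site GCGNGGGCG in EGR1 and in 9.08%. The E-box CACGTG was in 7.28% of promoters and in none of the 7. A match is a description of letters, and binding was not measured.

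In Huh7, FOS, FOSL1, EGR1 and MYC rose with resistance. In HepG2, FOSL2, JUN and MYC fell, and no gene of the group rose in that line. A gene is said to rise or fall at a Benjamini-Hochberg adjusted p under 0.05 over all genes tested (limma on log2(FPKM + 1)), and to be differentially expressed when its log2 difference also exceeds 1 in size. FPKM is the number of fragments per kilobase of exon, scaled to the reads of the library. Of the 8 genes tested in Huh7, 4 rose, against 32.7% of the 12554 genes tested, and none fell, against 37.4%. For so few genes, the share that rose is not far from that of all genes, while the share that fell is below it. In HepG2, 3 of the 7 genes tested fell, against 8.43% of 11762 genes, and none rose, against 11.6%. At an unadjusted p under 0.05, too, none fell in Huh7 and none rose in HepG2, as in limma-voom on reads calculated back. At that unadjusted p, 6 were lower in HepG2, where 4300 of the 11762 genes tested passed it in either direction. All 3 genes that fell in HepG2 were differentially expressed lower, as were 2.98% of all genes there. In Huh7, FOS and FOSL1 were differentially expressed higher, as were 8.59% of all genes. In HepG2, every resistant sample lay below every parental sample for 6 of the 7 genes tested, against 15.5% of all genes tested. The same held in the upward direction for 5 of the 8 genes in Huh7, against 35.2%. FOS and FOSL1 are in each of these upward Huh7 counts. Their resistant samples admitted them to the test, as described below, so the filter partly set these counts. In these bulk samples, fewer cells that express a gene and less RNA per cell cannot be told apart.

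**Figure D1:**
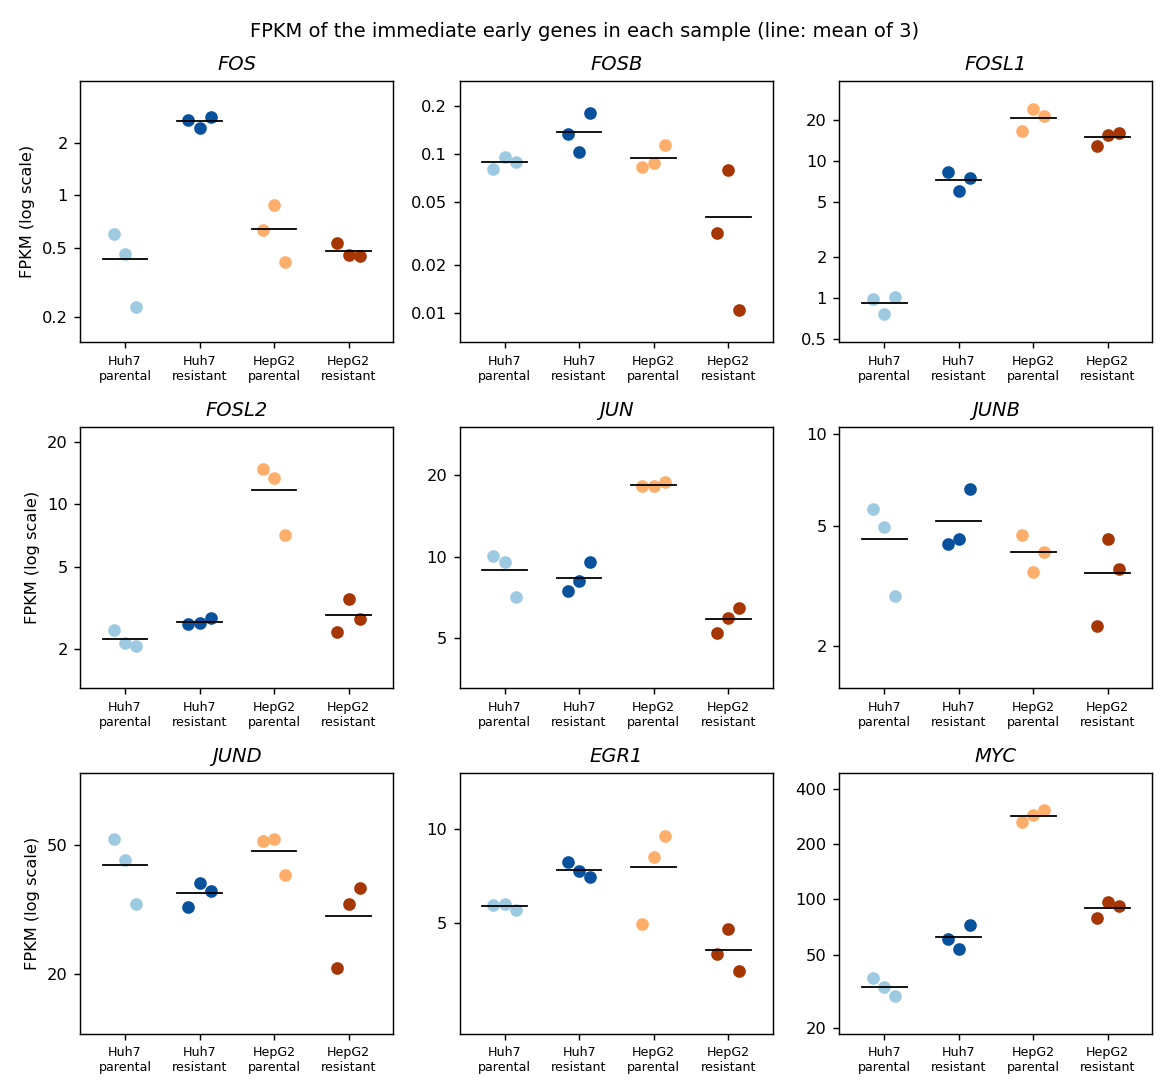
FPKM (vertical axis, log scale, a separate range per gene) of the 9 immediate early genes in the 3 samples of parental and resistant Huh7 and HepG2 cells (horizontal axis); each point is a sample and each line the mean. FOS stands at 2.43 to 2.83 FPKM in resistant Huh7 and at no more than 0.880 FPKM in the other groups, while JUN and MYC are highest in parental HepG2.

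FOS, the founding member of its family, lies at chr14:75278774-75282230 on the plus strand of GRCh38. It was at 2.69, 2.43 and 2.83 FPKM in resistant Huh7 replicates 1, 2 and 3 and at 0.602, 0.458 and 0.229 FPKM in the parental replicates. The groups did not overlap, and the mean was 6.16 times as high in resistant cells. The log2 difference was 1.36 ± 0.13 (SE; limma, adjusted p = 6.31e-05). FOS passed the filter, at least 1 FPKM in at least 3 samples, through the resistant samples alone, so a gene tested on these terms had to differ. In HepG2, FOS was too low to be tested, at 0.529, 0.456 and 0.449 FPKM in resistant and 0.635, 0.880 and 0.412 FPKM in parental cells, and these groups overlapped. The values outside resistant Huh7 rested on 12 to 35 reads per sample, compared with 152 to 174 reads in resistant Huh7.

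FOSL1, which encodes FRA-1 and lacks the activation domain of FOS, lies at chr11:65892049-65900573 on the minus strand. In Huh7 it was at 8.32, 6.05 and 7.55 FPKM in resistant and 0.975, 0.755 and 1.02 FPKM in parental cells. The resistant mean was 7.98 times the parental mean, and the log2 difference of 2.11 ± 0.13 (SE; limma, adjusted p = 1.36e-05) was above that of 99.2% of the genes tested. Here too the filter was met by the resistant samples, since a single parental sample reached 1 FPKM. HepG2 held more FOSL1 than Huh7 in either state, with 13.0, 15.6 and 16.2 FPKM in resistant and 16.6, 24.2 and 21.6 FPKM in parental cells. All resistant samples lay below all parental samples in HepG2, but the log2 difference of -0.44 (95% interval -0.83 to -0.05) did not pass the threshold (limma, adjusted p = 0.103). FOSL1 thus took 4 separate levels, falling from parental HepG2 through resistant HepG2 and resistant Huh7 to parental Huh7, and no neighbouring groups overlapped.

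FOSL2, which encodes FRA-2, lies at chr2:28392448-28417312 on the plus strand. Parental HepG2 stood apart from the other groups, with 14.8, 13.4 and 7.13 FPKM, and replicate 3 had the lowest of these values. Resistant HepG2 cells had 2.42, 3.50 and 2.80 FPKM, which put FOSL2 4.05 times lower than in parental cells and gave a log2 difference of -1.66 ± 0.25 (SE; limma, adjusted p = 0.00408). The level of resistant HepG2 overlapped that of resistant Huh7, at 2.64, 2.66 and 2.83 FPKM. In parental Huh7 the values were 2.47, 2.15 and 2.08 FPKM, all below the resistant samples. The Huh7 difference of 0.20 (95% interval -0.04 to 0.44) did not pass the threshold (limma, adjusted p = 0.116), and after removal of the GC trend described below it was -0.22 (adjusted p = 0.0351).

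FOSB, at chr19:45467995-45475179 on the plus strand, was hardly detected. The highest values were 0.133, 0.103 and 0.18 FPKM in resistant Huh7, compared with 0.0803, 0.0962 and 0.0892 FPKM in parental Huh7. In HepG2 it was at 0.0319, 0.0788 and 0.0105 FPKM in resistant and 0.0823, 0.0879 and 0.114 FPKM in parental cells. No sample held more than 19 reads of FOSB, and resistant HepG2 replicate 3 held 1. The gene passed the filter in no comparison. Its exons lie within the span of ERCC1 on the opposite strand, which had means of 3.35 to 5.36 FPKM, and the use of strand in counting was not given in the sources used here, so reads of the 2 genes cannot be told apart.

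The makeup of the FOS family differed between the groups. The summed FPKM of the 4 genes was 3.66 ± 0.4 (SD, n = 3) in parental and 12.8 ± 1.37 in resistant Huh7, and 33.3 ± 4.77 in parental and 18.4 ± 2.05 in resistant HepG2. FOSL2 made up 60.9% ± 1.15 of this sum in parental Huh7 but 21.3% ± 2.24 in resistant Huh7, where FOSL1 made up 56.9% ± 3.32, up from 25.1% ± 4.19. In HepG2, FOSL1 was the largest share in both states, at 62.8% ± 11.0 in parental and 81.4% ± 1.9 in resistant cells. FOS itself made up 20.7% ± 1.13 in resistant Huh7, 11.5% ± 4.21 in parental Huh7 and no more than 3.31% in any HepG2 sample. FOSB made up at most 2.78% in any sample. These shares are given without a test. In each line the share of FOSL1 was higher in all 3 resistant samples than in all 3 parental samples, and that of FOSL2 was lower.

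**Figure D2:**
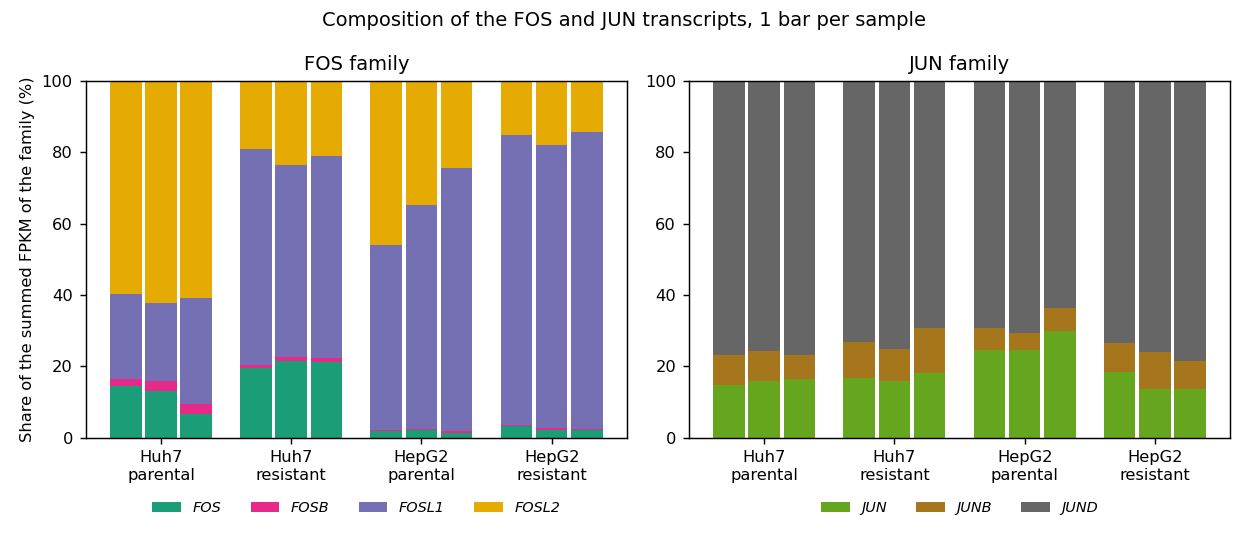
Share of each gene in the summed FPKM of the FOS family (left) and the JUN family (right), in percent (vertical axis), with 1 bar for each of the 12 samples (horizontal axis, 3 per group). FOSL2 is the largest share in parental Huh7, at 59.8% to 62.1%, and FOSL1 in the other groups, while JUND is the largest JUN share in every sample.

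JUN, the partner that gives AP-1 much of its activity, lies at chr1:58780788-58784327 on the minus strand and has a single exon. In HepG2 it was at 5.22, 5.90 and 6.47 FPKM in resistant and at 18.2, 18.2 and 18.9 FPKM in parental cells, with a narrow spread in the latter. The resistant mean was 3.14 times lower, with a log2 difference of -1.51 ± 0.13 (SE; limma, adjusted p = 0.000438), lower than that of all but 1.04% of the genes tested. In Huh7, JUN was at 7.43, 8.11 and 9.54 FPKM in resistant and 10.0, 9.54 and 7.10 FPKM in parental cells. These groups overlapped, and the difference of -0.07 had a 95% interval of -0.41 to 0.27 (limma, adjusted p = 0.676). After removal of the GC trend it was -0.59 (adjusted p = 0.00384).

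JUNB, often an antagonist of JUN, lies at chr19:12791496-12793315 on the plus strand, within the span of HOOK2 on the opposite strand, whose mean was 0.764 to 1.32 FPKM. It was at 4.34, 4.53 and 6.62 FPKM in resistant and 5.70, 4.96 and 2.92 FPKM in parental Huh7, and at 2.34, 4.51 and 3.61 FPKM in resistant and 4.64, 3.53 and 4.09 FPKM in parental HepG2. All neighbouring groups overlapped. The log2 difference was 0.17 (95% interval -0.33 to 0.68) in Huh7 and -0.21 (-0.67 to 0.26) in HepG2, and neither passed the threshold (limma, adjusted p = 0.493 and 0.494).

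JUND, a JUN protein that many resting cells express, lies at chr19:18279760-18281622 on the minus strand. It had the highest level of the AP-1 genes in every group, with 32.2, 38.2 and 36.1 FPKM in resistant and 52.2, 45.2 and 33.0 FPKM in parental Huh7. HepG2 had 20.9, 33.0 and 36.9 FPKM in resistant and 51.5, 52.5 and 40.3 FPKM in parental cells. The HepG2 groups did not overlap, but the log2 difference of -0.68 ± 0.22 (SE) did not pass the threshold (limma, adjusted p = 0.0637). That of -0.26 ± 0.17 in Huh7 did not pass it either (adjusted p = 0.19), and with the GC trend taken off both did, at -1.12 (adjusted p = 0.00357) and -0.63 (adjusted p = 0.00949). JUND made up 67.9% ± 3.69 (SD, n = 3) of the summed JUN family FPKM in parental HepG2 and 72.5% to 76.4%, as means, in the other groups. JUN made up 26.3% ± 3.07 in parental HepG2, against 15.2% ± 2.71 in resistant HepG2, 15.8% ± 0.9 in parental Huh7 and 17.0% ± 1.16 in resistant Huh7.

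EGR1, whose promoter carries the CArG boxes printed above, lies at chr5:138465490-138469315 on the plus strand. It was at 7.86, 7.34 and 7.02 FPKM in resistant and at 5.70, 5.73 and 5.50 FPKM in parental Huh7. The groups did not overlap, and the resistant mean was 1.31 times the parental mean, with a log2 difference of 0.34 ± 0.10 (SE; limma, adjusted p = 0.0139). With the GC trend taken off, the direction turned and the call was lost, at -0.15 (adjusted p = 0.147). It was also lost when all 12 samples shared the spread (adjusted p = 0.114), without resistant replicate 1 (0.30, adjusted p = 0.0601) and without parental replicate 2 (0.35, adjusted p = 0.051). In HepG2, EGR1 was at 3.97, 4.78 and 3.50 FPKM in resistant and 4.95, 8.14 and 9.54 FPKM in parental cells. All resistant samples were lower, and the log2 difference of -0.72 (95% interval -1.23 to -0.20) lay just beyond the threshold (limma, adjusted p = 0.0556). Without parental replicate 1, the lowest of its group, it passed (-0.96, adjusted p = 0.0212).

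MYC, at chr8:127735434-127741434 on the plus strand, had the highest FPKM of the 9 genes in 9 of the 12 samples, with JUND higher in the 3 of parental Huh7. Its change went in opposite directions in the 2 lines. In Huh7 it was at 61.3, 53.5 and 72.6 FPKM in resistant and 37.2, 33.3 and 29.8 FPKM in parental cells. The resistant mean was 1.87 times as high, with a log2 difference of 0.88 ± 0.14 (SE; limma, adjusted p = 0.000674). In HepG2 it was at 79.5, 96.3 and 92.1 FPKM in resistant and 262, 286 and 305 FPKM in parental cells. The resistant mean was 3.18 times lower, with a log2 difference of -1.66 ± 0.14 (SE; limma, adjusted p = 0.000424), and 0.714% of the genes tested fell further. The 4 levels did not overlap, and even after its fall resistant HepG2 held more MYC than resistant Huh7.

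MYCN, the MYC paralogue best known from neuroblastoma, changed in the same directions as MYC and by more. It was at 140.0 ± 1.29 FPKM (SD, n = 3) in resistant and 31.3 ± 6.04 FPKM in parental Huh7, with a log2 difference of 2.14 ± 0.15 (SE; limma, adjusted p = 1.87e-05). In HepG2 it was at 0.597 ± 0.169 FPKM in resistant and 13.4 ± 3.71 FPKM in parental cells, with a log2 difference of -3.15 ± 0.22 (SE; limma, adjusted p = 0.000173), and it met the filter there through the parental samples alone. The difference between the lines was 5.29 ± 0.27 (SE; limma interaction, adjusted p = 2.5e-07). The sum of MYC, MYCN and MYCL, taken after their values were seen, was 64.9 ± 9.53 FPKM in parental and 203 ± 9.41 FPKM in resistant Huh7, and 300.0 ± 24.2 FPKM in parental and 90.3 ± 8.99 FPKM in resistant HepG2, and is given without a test. MYCN made up 69.1% ± 3.33 of this sum in resistant Huh7, and MYC made up 98.9% ± 0.202 in resistant HepG2.

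**Figure D3:**
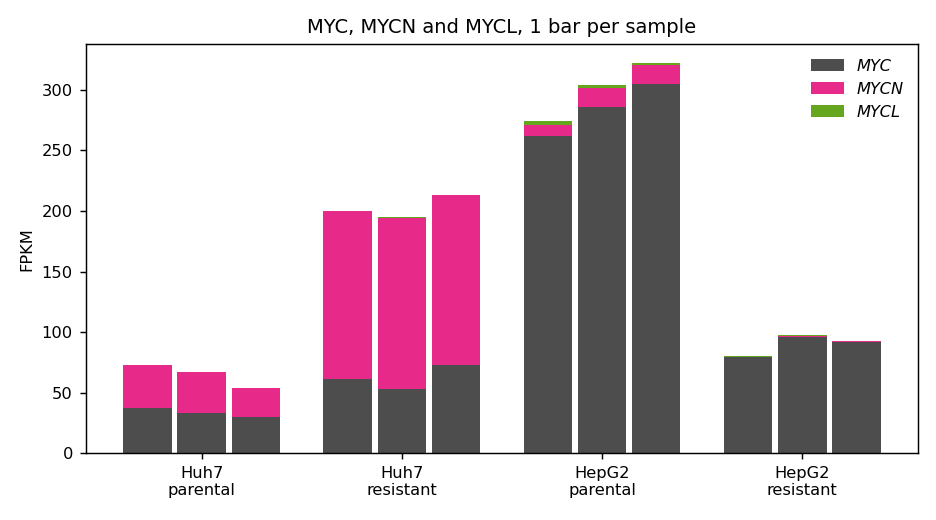
FPKM of MYC, MYCN and MYCL (vertical axis, stacked from 0), with 1 bar for each of the 12 samples (horizontal axis, 3 per group). In resistant Huh7 MYCN is the larger part, at 139 to 141 FPKM beside 53.5 to 72.6 FPKM of MYC, while both HepG2 groups are almost all MYC.

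The change with resistance was then compared between the lines, with the interaction of line and resistance in all 12 samples. For 6 of the 8 genes tested the change was more positive in Huh7 than in HepG2 (limma, adjusted p under the threshold), against 23.1% of the 13800 genes tested. The difference between the 2 log2 changes was 2.55 ± 0.22 (SE) for FOSL1, 2.54 ± 0.19 for MYC, 1.86 ± 0.30 for FOSL2, 1.50 ± 0.18 for FOS, 1.43 ± 0.19 for JUN and 1.06 ± 0.25 for EGR1. The adjusted p ran from 2.81e-06 for MYC to 0.00449 for EGR1. For JUNB the difference was 0.38 (95% interval -0.34 to 1.10) and for JUND 0.42 (-0.25 to 1.09), and neither passed (limma, adjusted p = 0.341 and 0.26). FOS again met the filter through resistant Huh7 alone. The median over all genes tested was -0.15, and it moved to -0.03 with median-ratio scaling, under which 6 were also called higher.

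**Figure D4:**
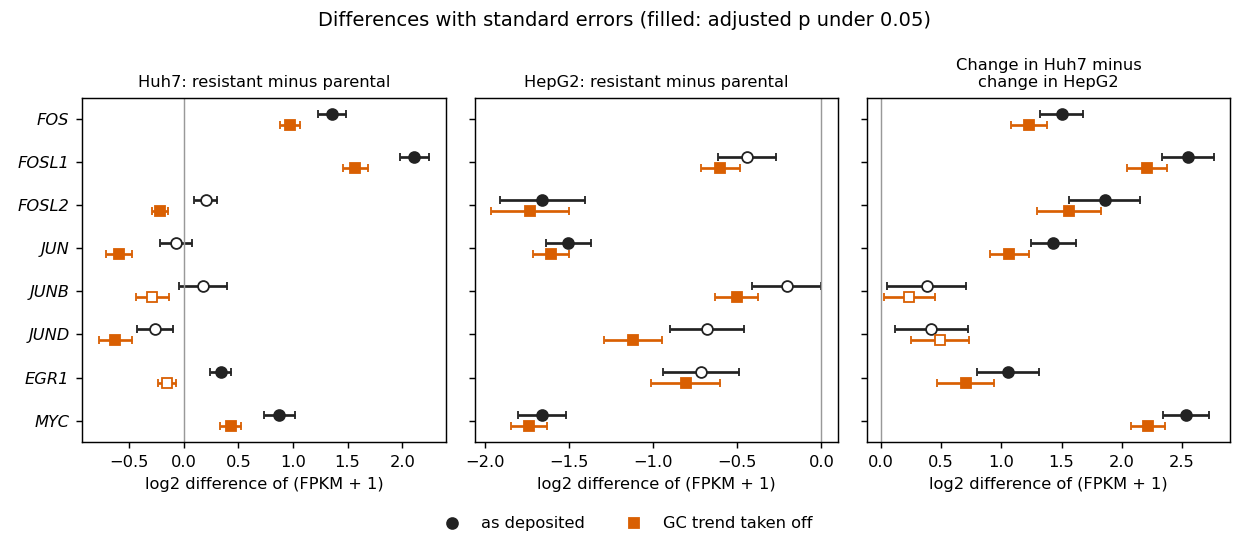
Log2 differences of FPKM + 1 (horizontal axis) with standard errors for the 8 genes tested, in Huh7 (left), in HepG2 (middle) and as the Huh7 change minus the HepG2 change (right), from the deposited values (circles) and after the trend of each sample with GC content was removed (squares). Filled symbols passed an adjusted p of 0.05; in Huh7 EGR1, FOSL2 and JUNB turn direction without the GC trend, while the 6 called differences between the lines stay above 0.

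Across the genes tested in Huh7, the log2 change was related to the GC content of the exons, with a Spearman correlation of 0.617 over 12545 genes, which are not independent replicates. In HepG2 it was 0.0389. The 9 genes have a GC content of 52.6% (FOS) to 69.7% (JUND), all above the median of 46.7% of the genes tested in Huh7. When this trend was removed from each sample, FOS (0.97), FOSL1 (1.57) and MYC (0.43) still rose in Huh7 (limma, adjusted p = 0.000162, 6.22e-05 and 0.00706), and FOSL2, JUN and JUND fell. Of the 12554 genes tested in Huh7, 4084 rose and 4009 fell under this setting. The 3 rises and 3 falls among the 8 genes are close to these shares. In HepG2 all 7 genes tested then fell, against 17.6% of all genes.

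Before resistance, the lines already differed. Of the 7 genes tested, 4 were higher in parental HepG2 than in parental Huh7, against 26.2% of 12796 genes, and none was higher in Huh7, against 39.0%, nor at an unadjusted p under 0.05 or in limma-voom. FOSL1 was 22.7 times, MYC 8.50 times, FOSL2 5.27 times and JUN 2.07 times as high by mean FPKM in HepG2. The log2 differences of Huh7 minus HepG2 were -3.50 ± 0.17 (SE), -3.05 ± 0.14, -1.93 ± 0.24 and -0.99 ± 0.15, with adjusted p of 9.26e-07, 8.8e-07, 0.000201 and 0.000556 (limma). EGR1, JUNB and JUND did not pass, with differences of -0.32, 0.09 and -0.16. The median over all genes tested was 0.19, and 0.05 with median-ratio scaling. These comparisons share the parental samples with those above. In the resistant cells, FOSL1 was still 2.04 times and MYC 1.43 times as high in HepG2 as in Huh7 by mean FPKM, FOSL2 was 1.07 times as high, and JUN was 1.43 times as high in Huh7.

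Lists of genes around the group were counted in the same fits. Of 28 other immediate early genes, 16 were tested in HepG2, where 8 fell, against 8.43% of all genes, and 1 rose, against 11.6%. The median log2 difference was -0.90 against 0.12 for all genes. PPP1R15A, which restarts translation after stress, fell from 39.5 ± 5.07 to 9.36 ± 0.834 FPKM (SD, n = 3; log2 difference -1.96). KLF10 (-1.64), TRIB1 (-1.60), a pseudokinase gene, and BTG1 (-1.53), an antiproliferative gene, fell as well. BTG2 was the gene that rose (0.70), named after its value was seen. In Huh7, 19 were tested, and 9 rose, against 32.7% of all genes, and 4 fell, against 37.4%. The median was 0.29 against -0.04. With the GC trend taken off, 7 fell, against 4009 of all 12554 genes tested. KLF10 and GEM rose from parental means of 0.943 and 0.978 FPKM. Their resistant samples met the filter, and they are named for that reason. CSRNP1 (1.48), ZFP36 (1.19), whose product speeds the decay of short-lived mRNAs, and TRIB1 (1.03) rose, with smaller values of 0.94, 0.66 and 0.65 with the GC trend taken off, while CYR61 (-2.17), a matricellular gene, fell from 19.8 ± 5.12 to 3.65 ± 1.29 FPKM. TRIB1, named in both lines, differed between them by 2.63 ± 0.19 (SE; limma, adjusted p = 2.25e-06).

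Of 13 AP-1 partners, 8 were tested in each line. In HepG2, 5 fell, against 8.43% of all genes, and none rose (limma), against 11.6%. At an unadjusted p under 0.05, 1 was higher there, and none in limma-voom. MAFF (-1.59) and ATF3 (-1.19), a stress-induced ATF gene, were differentially expressed. In Huh7, 3 rose and 3 fell, against 32.7% and 37.4% of all genes, with BATF2 (1.09) and MAFG (1.07) higher and MAF (-1.71) lower. With the GC trend taken off, BATF2 was at 0.56, MAFG at 0.54 and MAF at -1.69. BATF2 and ATF3 were at or above 1 FPKM in a single group of their line and had to differ to be tested.

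The MYC network and MYC target genes were counted next. Of 12 network genes, 11 were tested in Huh7, where 5 rose, against 32.7% of all genes, and 2 fell, against 37.4%. All 12 were tested in HepG2, where 1 rose, against 11.6%, and 4 fell, against 8.43%. Among those that fell, MYCN and MYCL met the filter through the parental samples alone and had to differ to be tested. Among the MXD proteins, which compete with MYC for MAX, MXI1 (-2.13) and MXD1 (-1.37) fell in HepG2 and MXD4 (1.18) rose, the last with a call that was lost without resistant replicate 3 (adjusted p = 0.0607), parental replicate 1 (0.0639) or parental replicate 3 (0.0503), or when low genes were kept (0.0673). Of the 28 MYC target genes tested in Huh7, 23 rose and 1 fell, against 32.7% and 37.4% of all genes, with a median log2 difference of 0.92 against -0.04. ENO1 (1.73), an enzyme of glycolysis, ODC1 (1.55), the first enzyme of polyamine synthesis, FBL (1.43), which methylates ribosomal RNA, and RRP12 (1.39), a ribosome biogenesis factor, had the largest changes. With the GC trend taken off they were smaller, at 1.34, 1.24, 0.97 and 0.85 in that order. The counts were the same, 23 and 1, with the GC trend taken off, against 4084 and 4009 of all 12554 genes tested. In HepG2, where MYC fell, 3 of 28 MYC target genes rose, against 11.6% of all genes, and 3 fell, against 8.43%. The other 22 did not pass, and the median was -0.03 against 0.12. For 15 of the 28 the change was more positive in Huh7 (limma interaction), against 23.1% of all genes, and for none in HepG2, nor at an unadjusted p under 0.05 or in limma-voom.

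Of 23 AP-1 target genes, 9 were tested in each line. In HepG2, 4 fell, against 8.43% of all genes, and 1 rose, against 11.6%, which was SPP1, osteopontin (log2 difference 1.83). AREG and HBEGF were among those that fell, from means of 1.22 and 1.80 FPKM to 0.324 and 0.405 FPKM. They met the filter through the parental samples alone, are named for that reason, and had to differ to be tested. In Huh7, 5 rose, against 32.7% of all genes, and 2 fell, against 37.4%. TIMP1, an inhibitor of matrix metalloproteinases, was at 14.2 ± 2.7 FPKM in resistant and 0.991 ± 0.443 FPKM in parental cells (log2 difference 2.94). Its resistant samples met the filter. Among the RAS, RAF and MAP kinase genes upstream, 18 were tested: 7 rose and 7 fell in Huh7, against 32.7% and 37.4% of all genes, and 1 rose and 1 fell in HepG2, against 11.6% and 8.43%. With the GC trend taken off, 4 fell in each line, against 4009 of 12554 genes in Huh7 and 2070 of 11762 genes in HepG2. BRAF (-1.07, and -0.43 with the GC trend taken off) was among those that fell in Huh7. Of 7 EGR1 and SRF cofactors tested, 2 rose and 3 fell in Huh7, against 32.7% and 37.4% of all genes. None was called in HepG2 (limma), where 2 were higher at an unadjusted p under 0.05 and 1 in limma-voom. Of 9 turnover factors, which control decay of these mRNAs and proteins, 3 rose and 4 fell in Huh7, against the same shares. In HepG2, 1 turnover factor rose, against 11.6%. The counts of turnover factors are close to the shares of all genes. Values named from the lists are limma log2 differences with adjusted p under 0.05.

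**Figure D5:**
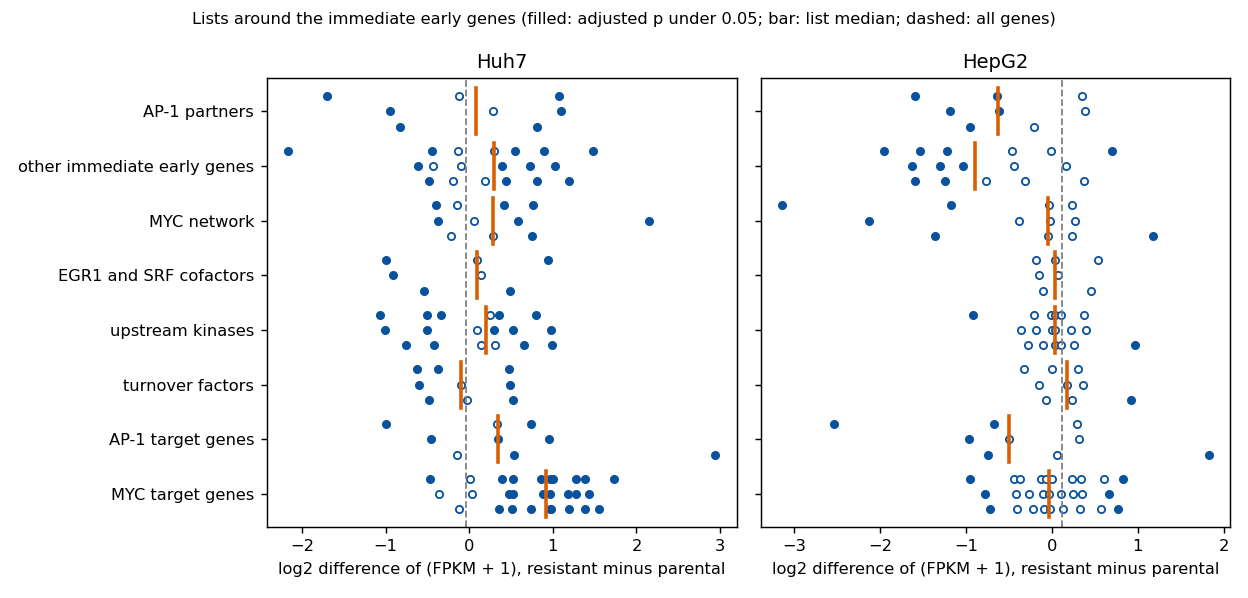
Log2 difference of FPKM + 1, resistant minus parental (horizontal axis), for each tested gene of 8 lists (vertical axis) in Huh7 (left) and HepG2 (right); each point is a gene, filled at adjusted p under 0.05, the bar is the list median and the dashed line the median of all genes tested. The MYC target genes have a median of 0.92 in Huh7 and -0.03 in HepG2, and the other immediate early genes one of 0.29 in Huh7 and -0.90 in HepG2.

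Genes with the most similar pattern were found by the root mean square difference of mean-centred log2(FPKM + 1) over the 12 samples, a description of 4 groups rather than of independent samples. For MYC these were HK2, hexokinase 2 (0.138, where the spread of MYC itself was 1.12), and TRIB1 (0.192), which lies at chr8:125430321-125438405 on the same chromosome. For FOSL1 they were SLC38A5 (0.255) and BAIAP2L2 (0.266), beside a spread of 1.36. For FOS they were ZFAND2A (0.117) and MX1 (0.12), beside 0.569, and for JUN MAP1LC3B (0.135) and MPZL3 (0.181), beside 0.565. For FOSL2 they were SH2D5 and PLPP2, for EGR1 NFKB1 and ZNF274, for JUNB ARHGAP45 and KMT5C, and for JUND ADM and SALL4, with differences of 0.128 to 0.204. The spread was 0.806 for FOSL2 but 0.355 for EGR1, 0.310 for JUNB and 0.353 for JUND, so the likeness of the last 3 is weak. SH2D5 and PLPP2 had means above 1 FPKM in parental HepG2 alone (2.82 and 3.21 FPKM), where FOSL2 is highest. MX1 had one in resistant Huh7 alone (2.61 FPKM), where FOS is highest. The filter thus partly set the likeness of these genes.

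The reads behind a sample numbered 12290115 to 19286042, with the fewest in parental HepG2. All 10 liver line markers, AFP and ALB among them, were at 1 FPKM or more in all 12 samples. The summed FPKM of 6 immune, 4 fibroblast and 4 endothelial markers was 1.94 to 7.94, 0.0259 to 1.25 and 1.17 to 3.66 per sample. LYZ led the immune markers in HepG2, and CD68 was at 0 in parental Huh7 and MS4A1 in parental HepG2. The immune and fibroblast sums overlapped between resistant and parental cells of a line, and the endothelial sum, led by PECAM1, was higher in resistant than in parental Huh7 and lower in resistant than in parental HepG2. The part of these cells in the results was not tested.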

How the data were processed

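RNA-seq values of 12 samples, 3 in each group named by the labels, were used. The authors deposited a table per sample without a stated unit; libraries were made with the NEBNext Ultra RNA kit, and the RNA was extracted with an RNeasy kit per the labels and with TRIzol per the methods of the paper. The build is GRCh38 and the tools include bcl2fastq per the submitters' processing notes; aligner, quantifier and strand setting were not given in the sources used here. The deposited values behave as FPKM or RPKM, which cannot be told apart: in 6896 single-exon genes they fall on whole multiples of 1 read, and 96.4% of the values of up to 2000 reads were within 0.05 of a whole read. This gave 12290115 to 19286042 reads per sample, a depth at which FOSB held 1 to 19 reads. Such reads are not independent molecules.

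From these FPKM, log2(FPKM + 1) was tested with limma 3.58.1 in R 4.3.3 (empirical Bayes with trend, two-sided, Benjamini-Hochberg over all genes tested) for Ensembl genes that reached 1 FPKM in 3 or more samples of the fit; a pseudocount of 1 understates changes of low genes. Fold ratios are of mean FPKM. Positions and exon lengths came from GENCODE 29, which holds 27234 of the Ensembl identifiers, and promoters from RefSeq (GRCh38.p14). Python 3.11.15, pandas 2.3.3 and numpy 2.4.6 were used, and the fit was tested on simulated data. Alternatives were a pseudocount of 0.1, no filter, upper-quartile and median-ratio scaling, limma without trend, limma-voom on reads calculated back, a correction of each sample for its trend with GC content (lowess, span 0.3), a replicate block, all 12 samples in 1 fit and leaving out each sample. The same alternatives for the lists, and a GC trend against the parental mean, were added after seeing the data. The genes and lists were chosen with earlier results of these data known. Besides all members, at most 4 genes per list and line were named, those with the largest log2 difference among the differentially expressed, and the 2 genes of most similar pattern for each member. Genes named for another reason are marked where they appear. Some genes that met this rule are not reported here. No test included the 71462 NONCODE genes.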

Additional observations from a re-analysis of the deposited data

Results flagged for a closer look

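The change with resistance differed between Huh7 and HepG2 for 6 immediate early genes and for 2 genes named from the lists, by the interaction of line and resistance (limma, 12 samples, adjusted p under 0.05). As log2 change in Huh7 minus log2 change in HepG2, it was 2.55 for FOSL1, 2.54 for MYC, 1.86 for FOSL2, 1.50 for FOS, 1.43 for JUN, 1.06 for EGR1, 5.29 for MYCN and 2.63 for TRIB1. In MYC, MYCN and TRIB1 the change passed the threshold in both lines and was upward in Huh7 and downward in HepG2. In FOSL2 and JUN it passed in HepG2, and in FOSL1 and EGR1 in Huh7. FOS was not tested in HepG2.

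The groups of FOSB did not overlap in either line and lay in opposite order, at 1.56 times the parental mean FPKM in resistant Huh7 and 0.426 times in resistant HepG2. FOSB did not reach the filter of 1 FPKM, so this difference was not tested under it, and no sample held more than 19 reads of it. The nearest samples held 11 resistant and 9 parental reads in Huh7 and 8 resistant and 6 parental reads in HepG2. Without the filter FOSB was called in neither line (limma, adjusted p = 0.187 and 0.238), and the interaction was 0.14 on the log2(FPKM + 1) scale (limma, adjusted p = 0.036).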

How the results depend on the processing

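In Huh7, 4 immediate early genes were called, and 2 with a log2 difference beyond 1 required as well. With the GC trend taken off, 3 rose and 3 fell, against 4084 and 4009 of all 12554 genes tested. EGR1 (-0.15), FOSL2 (-0.22) and JUNB (-0.29) turned direction. Leaving out each sample gave 2 to 5 calls. FOS was not tested without any of the resistant replicates 1, 2 and 3, since fewer than 3 samples then reached 1 FPKM, and 2 calls remained without resistant replicate 1, where EGR1 was lost too. Over those fits JUN lay between -0.21 and 0.013 and JUNB between -0.054 and 0.33. In HepG2, 3 were called, but 5 with median-ratio scaling, 5 in limma-voom, 5 with the replicate block, 6 with all 12 samples in 1 fit, 7 with the GC trend taken off and 3 to 4 without a sample. EGR1 passed with each of these 5 settings, JUND in all of them but the replicate block, and FOSL1 with the block, the single fit and the GC trend taken off. In Huh7, JUND fell without parental replicate 3 (-0.44). Of all genes in HepG2, 2357 were called, 3929 with the GC trend taken off, 3888 with all 12 samples in 1 fit and 840 to 2224 without a sample, with 1466 without resistant replicate 2, 840 without resistant replicate 3 and 1231 without parental replicate 1. The split was 1366 higher and 991 lower, and 992 and 1286 with median-ratio scaling. For the difference between the lines it was 3182 and 4586, and 3941 and 3772 with the GC trend taken off, and for the parental lines 4990 and 3348, and 4293 and 4330 with the GC trend against the parental mean taken off. The 6 differences between the lines were called in all alternatives that kept every sample, and 5 of them when resistant Huh7 replicate 1, 2 or 3 was left out, where FOS was not tested. Between the parental lines JUNB was -0.053 with median-ratio scaling and -0.068 to 0.32 without a sample, and JUND -0.30 to 0.023. The cause of these changes was not tested.

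Samples with the same replicate number did not deviate together in every pair, with correlations of -0.23 to 0.08 in Huh7 and -0.01 to 0.44 in HepG2. Samples with different numbers had correlations of -0.33 to 0.28 in Huh7 and -0.42 to 0.21 in HepG2. Whether a shared number marks a pairing was not given in the labels and was not tested. The replicate block raised the calls in HepG2 from 3 to 5 immediate early genes, left 4 in Huh7, 6 between the lines and 4 between the parental lines, and gave 3418 genes in HepG2.

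Depth limits FOSB and, outside resistant Huh7, FOS. With 3 samples a group an exact permutation test could not go below 0.1.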

Other observations

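Of the 9 immediate early genes, 6 are overlapped by other listed genes, 8 in all, of which 6 carry NONCODE identifiers and were not tested. The higher of 2 NONCODE genes on the strand of FOSL1 had mean values of 0.753 FPKM in resistant and 0.119 FPKM in parental Huh7 and of 2.09 and 1.94 FPKM in resistant and parental HepG2, an order of Huh7 groups that FOSL1 shares. The higher of 2 NONCODE genes antisense to MYC had 1.21 FPKM in resistant and 0.615 FPKM in parental Huh7 and 1.70 FPKM in resistant and 2.56 FPKM in parental HepG2. The strand setting of the counting was not given, so reads of MYC and of the genes antisense to it cannot be told apart.

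Among the 3 samples of a group, parental Huh7 replicate 3 was the lowest for 7 of the 9 genes, and resistant HepG2 replicate 1 for 6. Resistant Huh7 replicate 3 and parental Huh7 replicate 1 were each the highest for 6.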
